A study of Mus musculus with 11 samples.

Results

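A group of 10 genes in common use as marks of neural stem cells and radial glia was followed through cultured mouse neuroprogenitor cells (NPCs). They were chosen by name, with earlier results of these data known, namely *Sox1*, *Sox2*, *Sox9*, *Nes*, *Vim*, *Fabp7*, *Slc1a3*, *Prom1*, *Msi1* and *Msi2*, 10 of the 53801 gene identifiers in the count tables. All 10 passed the filter on low counts in each comparison. Against untreated cells, 4 of the 10 were lower after *Smg6* deletion induced by 4-hydroxytamoxifen, beside 4.98% of all genes. Drug and deletion cannot be told apart in that comparison. The count of 4 fell to 1 when all libraries entered 1 fit or when the Ctr library of embryo SMH_128 or SMH_132 was left out. Calls over all genes fell as well, from 1663 to 796, 578 and 574. Against treated cells without the recombinase none of the 10 passed the test, beside 1.17% of all genes.

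Neural stem cells of the embryonic brain divide next to the ventricle, either to renew themselves or to give rise to neurons, and later glia. Radial glia, the elongated stem cells of this stage, keep SOX transcription factors that hold the progenitor state, carry nestin and vimentin filaments along their fibres and make glial proteins for lipid binding and glutamate uptake. Musashi proteins bind mRNAs in these cells and control their translation, and as neurons differentiate most of these genes are switched off.

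RNA was taken from brain cells of E13.5 mouse embryos of a mixed C57BL/6 and 129SV background, grown as neurospheres in medium with EGF and bFGF, and sequenced in 11 libraries after removal of ribosomal RNA. *Smg6* encodes an endonuclease of nonsense-mediated mRNA decay, and the design asks how NPCs change when it is deleted, with 2 control groups, untreated or without the recombinase. All 11 cultures were homozygous for the floxed *Smg6* allele (*Smg6* Flox/Flox). The Ctr group (3 embryos) carried RosaCreER tg/+, a recombinase expressed from the ubiquitous Rosa26 locus and active only with 4-hydroxytamoxifen (4-OHT), and was left untreated. The Ctr + 4-OHT group (4 embryos) was RosaCreER +/+, without the recombinase, and received 1 µM 4-OHT. The *Smg6*-iKO group (4 embryos) was RosaCreER tg/+ and received 1 µM 4-OHT, which by the labels stayed on for 3 days, and RNA was taken 6 days after the treatment began. Embryos SMH_128, SMH_132 and SMH_133 each gave a Ctr and a *Smg6*-iKO library, whereas embryos SMH_125, SMH_126, SMH_129 and SMH_131 gave only a Ctr + 4-OHT library and embryo SMH_127 only a *Smg6*-iKO library. *Smg6*-iKO against Ctr therefore compares cells of 1 genotype with and without 4-OHT, in which the drug and the deletion cannot be told apart. *Smg6*-iKO against Ctr + 4-OHT compares treated cells with and without the recombinase, in which the recombinase itself and the deletion cannot be told apart, and Ctr + 4-OHT against Ctr differs in both drug and recombinase.

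The libraries held 26418249 to 33756875 counts on genes. *Smg6* itself ran from 8.22 to 9.39 RPKM in Ctr, from 7.87 to 8.55 in Ctr + 4-OHT and from 7.37 to 8.50 in *Smg6*-iKO, and a count over the whole gene does not isolate the floxed segment. RPKM is the count per kilobase of the gene's exons and per M counts (CPM) after TMM scaling, so it can be set side by side between genes. The libraries Ctr + 4-OHT SMH_125 and SMH_131 and *Smg6*-iKO SMH_127 were highest in the summed level of 6 mesenchymal and of 10 neuron markers, and results that turn on them are also given without them. In bulk RNA, fewer cells of a type and less RNA per cell cannot be told apart.

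As the label of neural stem cells calls for, all 10 genes were present throughout, each with between 918 and 72798 counts in every library. *Fabp7* stood highest, with 1106 ± 117 RPKM (SD, n = 11), rank 12 among the 18123 genes kept over all libraries. *Vim* followed with 447 ± 36.7 RPKM and rank 41. *Slc1a3*, *Nes* and *Sox2* formed a close group at 137 ± 19.6, 127.3 ± 12.5 and 119.6 ± 23.2 RPKM. *Msi2* lay at 33.7 ± 2.76 RPKM, and *Sox9*, *Prom1*, *Sox1* and *Msi1* lay lowest, at 10.4 ± 1.40, 9.44 ± 1.78, 8.68 ± 1.23 and 8.49 ± 1.05 RPKM. Ranges over the libraries overlapped between *Slc1a3* and *Nes*, between *Nes* and *Sox2*, and between each neighbouring pair from *Sox9* down to *Msi1*. They did not overlap between *Fabp7* and *Vim*, *Vim* and *Slc1a3*, *Sox2* and *Msi2*, or *Msi2* and *Sox9*. The 10 genes together took between 0.565% and 0.702% of all counts in a library.

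Below, the values of a group are given by embryo, in the order SMH_128, SMH_132 and SMH_133 for Ctr, SMH_125, SMH_126, SMH_129 and SMH_131 for Ctr + 4-OHT, and SMH_127, SMH_128, SMH_132 and SMH_133 for *Smg6*-iKO. Log2 fold changes and standard errors (SE) come from edgeR's quasi-likelihood test, with p-values adjusted by Benjamini-Hochberg over all genes tested, and a gene was called at an adjusted p under 0.05.

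**Figure D1:**
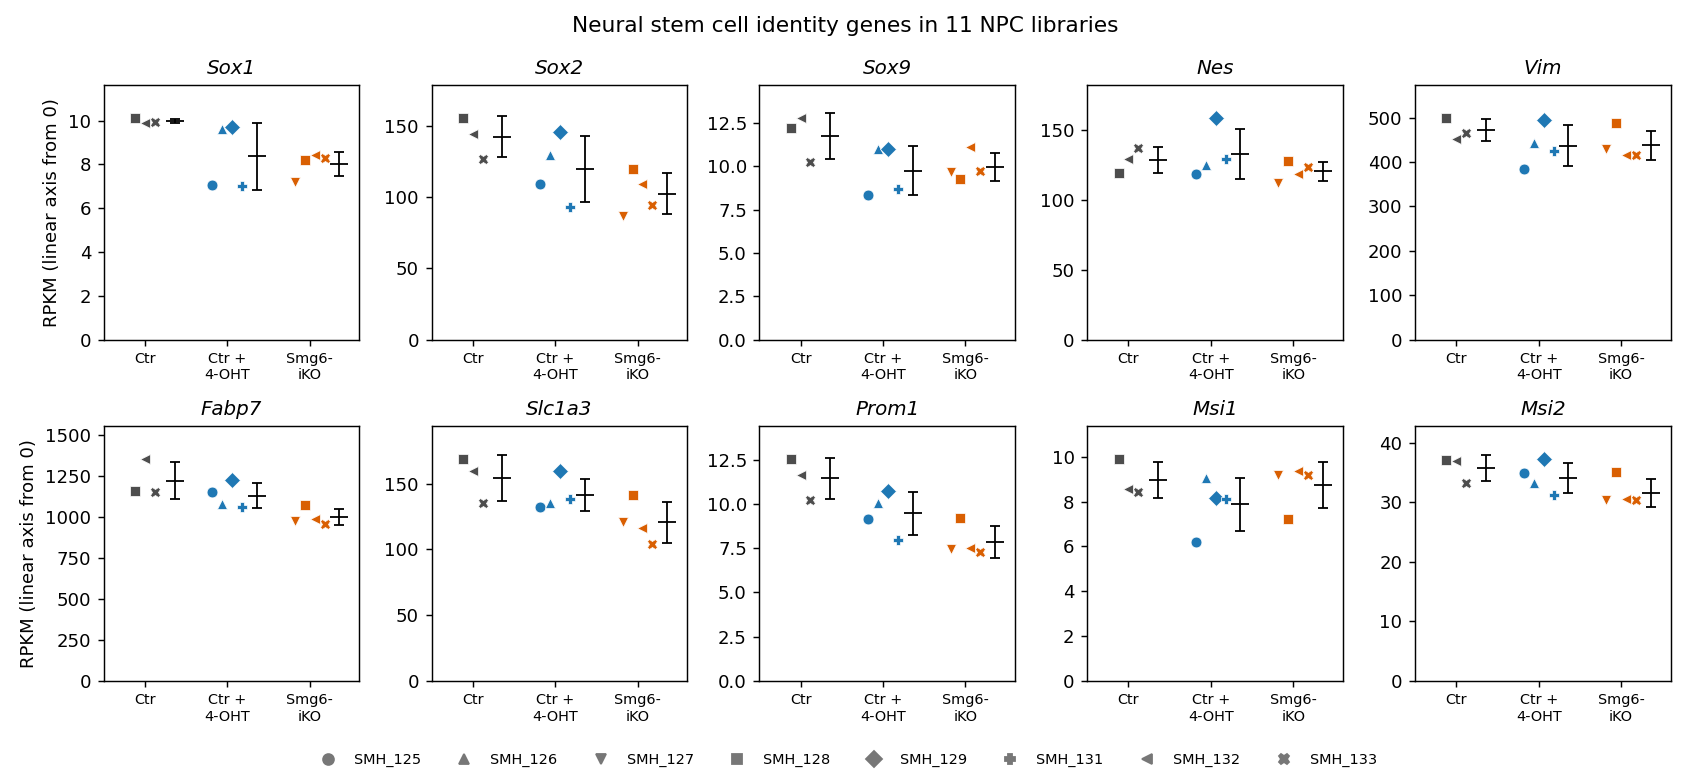
Level of each of the 10 genes (RPKM, linear axis from 0) in the 11 libraries, with 1 symbol per library whose shape marks the embryo, and the group mean with its SD in black. The 4 *Smg6*-iKO libraries lie below all 3 Ctr libraries for *Sox1*, *Sox2*, *Fabp7* and *Prom1*, and the Ctr + 4-OHT libraries reach down into the *Smg6*-iKO range for all 10 genes.

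*Smg6*-iKO against Ctr gave the clearest difference. *Sox1*, *Sox2*, *Fabp7* and *Prom1* fell, none of the 10 rose, and all 10 log2 fold changes were below 0, beside 49% of all genes. Over the 17974 genes tested 9.25% were called, 4.98% as lower, beside 4 of 10 here. The median log2 fold change of the 10 genes was -0.26, against 0.01 over all genes tested. For the same 4 genes the highest *Smg6*-iKO library lay below the lowest Ctr library, as it did for 11.9% of all genes tested. With the embryo as a replicate block, which uses the pairs from embryos SMH_128, SMH_132 and SMH_133, *Sox9*, *Slc1a3* and *Msi2* also passed and 7 of 10 genes were called, beside 21.4% of all genes (11.2% as lower). *Prom1* alone was called when all 11 libraries entered 1 fit, or when Ctr SMH_128 or Ctr SMH_132 was left out. In these settings the calls over all genes fell too, from 1663 to 796, 578 and 574.

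Against Ctr + 4-OHT none of the 10 genes was called in *Smg6*-iKO by edgeR, beside 1.17% of the 17558 genes tested, and DESeq2's Wald test called none either, beside 6.16% of the 14279 genes with an adjusted p. At an unadjusted p under 0.05 edgeR's quasi-likelihood test gave 3 genes, *Fabp7* (-0.17), *Slc1a3* (-0.22) and *Prom1* (-0.26), all lower in *Smg6*-iKO, beside 16.7% of all genes. The log2 fold change was below 0 for 7 of 10 genes, beside 47.2% of all genes tested, with a median of -0.11. No gene of the 10 had groups that did not overlap, beside 11% of all genes in either direction.

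Ctr + 4-OHT against Ctr, the comparison with no deletion on either side, also called none of the 10 by edgeR, beside 0.221% of the 17665 genes tested, or by DESeq2, beside 0.83% of the 20249 genes with an adjusted p. *Prom1* alone had an unadjusted p under 0.05, beside 8.28% of all genes, with a log2 fold change of -0.27. Nevertheless 9 of 10 log2 fold changes were below 0, beside 48.8% of all genes, and the median was -0.16. Without embryos SMH_125 and SMH_131, which left 2 libraries of Ctr + 4-OHT, *Sox1* and *Sox2* went from -0.25 to -0.04 each, *Prom1* to -0.13, *Slc1a3* to -0.06 and *Vim* to -0.0032, whereas *Nes* moved away from 0, to 0.15, and 9 of 10 were still below 0. Only *Sox1* had all Ctr + 4-OHT libraries below all Ctr libraries, as did 4.91% of all genes. Each comparison shares libraries with both others, so their fold changes are not independent and are given side by side.

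**Figure D2:**
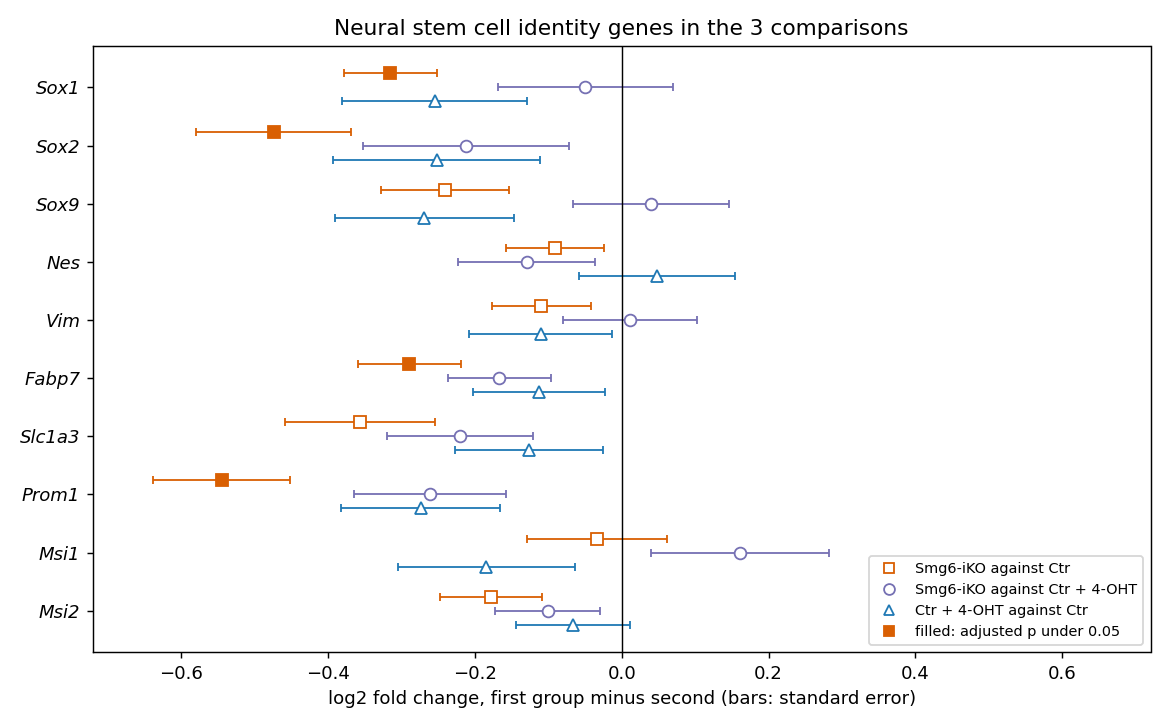
Log2 fold change of each gene in the 3 comparisons (first group minus second, with SE), filled where the adjusted p was under 0.05. *Prom1* (-0.54), *Sox2* (-0.47), *Sox1* (-0.31) and *Fabp7* (-0.29) in *Smg6*-iKO against Ctr are the 4 filled symbols, and the values of Ctr + 4-OHT against Ctr are below 0 for all but *Nes*.

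The SOX transcription factors come first. *Sox2*, which keeps progenitors proliferating and multipotent, is a single-exon gene on chromosome 3 (GRCm38, chr3:34650405-34652461, plus strand). It measured 155, 145 and 126.98 RPKM in Ctr. In Ctr + 4-OHT it measured 109, 129.6, 146 and 93.1 RPKM, and in *Smg6*-iKO 87.0, 119, 109 and 94.6 RPKM. All *Smg6*-iKO libraries thus lay below all Ctr libraries, whereas Ctr + 4-OHT spanned most of both ranges. *Sox2* fell by 0.47 on the log2 scale against Ctr (SE 0.106, adjusted p = 0.0223 by edgeR), beside -0.21 against Ctr + 4-OHT and -0.25 for Ctr + 4-OHT against Ctr. Within embryos SMH_128, SMH_132 and SMH_133 the level dropped by 23.2%, 24.6% and 25.5%, the narrowest spread of the 10 genes on the log2 scale.

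*Sox1*, the close relative of *Sox2* that is confined to the neural lineage, is also a single-exon gene (chr8:12395295-12400126, plus strand). Ctr held 10.1, 9.91 and 9.92 RPKM. Ctr + 4-OHT was split, with 7.07 and 7.02 RPKM in embryos SMH_125 and SMH_131 but 9.64 and 9.73 RPKM in embryos SMH_126 and SMH_129. *Smg6*-iKO held 7.21, 8.21, 8.41 and 8.27 RPKM, between those 2 pairs. *Sox1* fell by 0.31 on the log2 scale against Ctr (SE 0.063, adjusted p = 0.0154 by edgeR). Against Ctr + 4-OHT the value was -0.05 (SE 0.119), less than the spread between the embryos, and it changed sign when embryo SMH_126 or SMH_129 was left out of that group. Without the 3 libraries high in markers of other cells it was -0.22 (adjusted p = 0.179 by edgeR).

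*Sox9*, a SOXE factor needed for the onset of stem cell and glial properties, spans 3 exon blocks on chromosome 11 (chr11:112782224-112787760, plus strand). Its levels were 12.2, 12.8 and 10.2 RPKM in Ctr, 8.37, 10.97, 10.99 and 8.68 RPKM in Ctr + 4-OHT, and 9.68, 9.25, 11.1 and 9.74 RPKM in *Smg6*-iKO. The groups overlapped in all comparisons. The log2 fold change against Ctr was -0.24 (SE 0.087, adjusted p = 0.106 by edgeR), and with the replicate block it was -0.22 (adjusted p = 0.0181). The drop within embryos ranged from 4.91% to 24.3%.

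The ratio of *Sox1* to *Sox2* RPKM, which does not depend on how libraries are scaled, had geometric means of 0.0704 in Ctr, 0.0701 in Ctr + 4-OHT and 0.0787 in *Smg6*-iKO. The smallest p of its comparisons was 0.114 (two-sided exact permutation test of log2 ratios, *Smg6*-iKO against Ctr + 4-OHT, n = 4 and 4, adjusted p = 0.4 over the 6 ratio tests run). Groups of 3 and 4 allow no p below 0.0286.

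Neither filament gene passed edgeR's test in the 3 comparisons. *Nes* encodes nestin, the intermediate filament protein that defines neural progenitors in most stainings (chr3:87971078-87980451, plus strand). It gave 119, 129 and 138 RPKM in Ctr, 119, 124.8, 159 and 129 RPKM in Ctr + 4-OHT and 112, 128.2, 119 and 124 RPKM in *Smg6*-iKO. Embryo SMH_129 of Ctr + 4-OHT was the highest library and the rest lay close together. The log2 fold changes were -0.09 against Ctr (SE 0.067, adjusted p = 0.415) and -0.13 against Ctr + 4-OHT (SE 0.093, adjusted p = 0.526), both by edgeR. *Nes* was the 1 gene with a value above 0 in Ctr + 4-OHT against Ctr, at 0.05 (SE 0.106).

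*Vim*, the vimentin gene that radial glia share with mesenchymal cells (chr2:13573927-13582826, plus strand), gave 499, 452 and 464 RPKM in Ctr. Ctr + 4-OHT gave 385, 442, 496 and 425 RPKM and *Smg6*-iKO 429.7, 487, 416 and 417 RPKM, so the highest libraries of the 3 groups stood close together. The log2 fold changes were -0.11 (SE 0.068) against Ctr and 0.01 (SE 0.091) against Ctr + 4-OHT. Neither passed (adjusted p = 0.332 and 0.964 by edgeR). *Vim* was lower within each of the 3 embryos, at -0.10 with the replicate block (adjusted p = 0.118), and passed with the block and a correction for gene length together, at -0.15 (adjusted p = 0.0259 by edgeR).

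Next come the genes of the radial glial surface and metabolism. *Prom1* had the largest fold change of the 10 genes against Ctr. It encodes prominin-1 (CD133), a membrane protein of apical protrusions used to sort neural stem cells, and spans 36 exon blocks (chr5:43993620-44102032, minus strand). Ctr held 12.5, 11.6 and 10.2 RPKM, Ctr + 4-OHT 9.16, 10.1, 10.8 and 7.95 RPKM, and *Smg6*-iKO 7.43, 9.19, 7.53 and 7.30 RPKM. The means stepped down from Ctr through Ctr + 4-OHT to *Smg6*-iKO, 11.5 ± 1.16 (SD, n = 3), 9.49 ± 1.22 (SD, n = 4) and 7.86 ± 0.889 RPKM (SD, n = 4). *Prom1* fell by 0.54 on the log2 scale against Ctr (SE 0.093, adjusted p = 0.0081 by edgeR). Beside this stood -0.26 (SE 0.104) for *Smg6*-iKO against Ctr + 4-OHT and -0.27 (SE 0.108) for Ctr + 4-OHT against Ctr, neither called. Within embryos the level dropped by 26.7%, 35.3% and 28.6%. *Prom1* shared 424 exon bases with *Gm16401* on the other strand, which held 8 to 20 counts a library, against at least 1503 for *Prom1*. Of the 50-base stretches of *Prom1* transcripts 5.10% also occur, on either strand, in another gene's, and 314 of these 385 in *Gm16401*.

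*Fabp7*, the brain fatty acid binding protein of radial glia (chr10:57784881-57788450, plus strand), held 1159, 1350.3 and 1149.5 RPKM in Ctr. It held 1150.2, 1077, 1226 and 1061 RPKM in Ctr + 4-OHT and 976, 1069, 989.8 and 957 RPKM in *Smg6*-iKO. Only embryo SMH_131 of Ctr + 4-OHT lay below the highest *Smg6*-iKO library. *Fabp7* fell by 0.29 on the log2 scale against Ctr (SE 0.070, adjusted p = 0.0301 by edgeR), beside -0.17 against Ctr + 4-OHT and -0.11 for Ctr + 4-OHT against Ctr. The drop within embryos was uneven, 7.71%, 26.7% and 16.8%.

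*Slc1a3*, which encodes the glutamate transporter GLAST (chr15:8634124-8710764, minus strand), held 168, 159 and 135 RPKM in Ctr, 132.1, 135, 159.5 and 138 RPKM in Ctr + 4-OHT, and 121, 141, 116 and 104 RPKM in *Smg6*-iKO. Embryo SMH_128 was the highest of its group in both Ctr and *Smg6*-iKO, so the group ranges overlapped although the level dropped in each embryo, by 16.1%, 27.2% and 22.9%. The log2 fold change against Ctr was -0.36 (SE 0.103, adjusted p = 0.0535 by edgeR), just short of the threshold. With the replicate block it was also -0.36, with an adjusted p of 6.55e-05 by edgeR. Against Ctr + 4-OHT it was -0.22 (adjusted p = 0.299).

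The Musashi genes come last. *Msi1* (chr5:115429599-115455698, plus strand) encodes the Musashi protein long used as a mark of neural stem cells, and gave 9.89, 8.58 and 8.41 RPKM in Ctr, 6.21, 9.05, 8.17 and 8.11 RPKM in Ctr + 4-OHT and 9.21, 7.23, 9.36 and 9.19 RPKM in *Smg6*-iKO. Its log2 fold changes were the nearest to 0 of the 10 against Ctr, -0.03 (SE 0.095), and the furthest above 0 against Ctr + 4-OHT, 0.16 (SE 0.121), with adjusted p = 0.860 and 0.546 by edgeR. Embryo SMH_128 went against the other pairs, with a drop of 26.8% where embryos SMH_132 and SMH_133 were 9.10% and 9.28% higher.

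*Msi2*, the broadly expressed relative of *Msi1* (chr11:88339382-88718513, minus strand), gave 37.1, 36.9 and 33.3 RPKM in Ctr, 34.9, 33.2, 37.3 and 31.3 RPKM in Ctr + 4-OHT and 30.4, 35.2, 30.5 and 30.4 RPKM in *Smg6*-iKO. Embryo SMH_128 stood above the other *Smg6*-iKO libraries for *Msi2* and below them for *Msi1*. The log2 fold change against Ctr was -0.18 (SE 0.069, adjusted p = 0.128), and -0.16 with the replicate block (adjusted p = 0.0346), both by edgeR. The ratio of *Msi1* to *Msi2* had geometric means of 0.250 in Ctr, 0.229 in Ctr + 4-OHT and 0.276 in *Smg6*-iKO. None of its 3 comparisons passed, with a smallest p of 0.2 (two-sided exact permutation test, *Smg6*-iKO against Ctr + 4-OHT, n = 4 and 4, adjusted p = 0.4 over 6 tests).

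**Figure D3:**
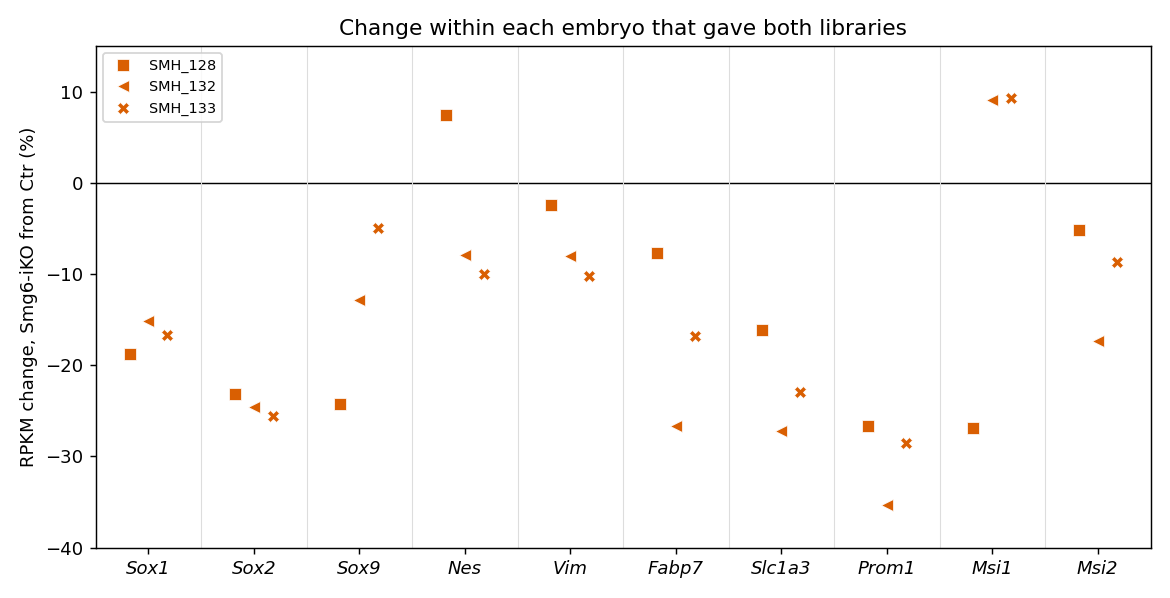
Percent change in RPKM from the Ctr to the *Smg6*-iKO library of the same embryo, for the 10 genes and embryos SMH_128, SMH_132 and SMH_133. All points lie below 0 except those of *Nes* in embryo SMH_128 (7.48%) and *Msi1* in embryos SMH_132 and SMH_133, and the points of *Sox2* (-25.5% to -23.2%) and *Sox1* (-18.8% to -15.1%) lie closest together.

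Taken embryo by embryo, 8 of 10 genes were lower in the *Smg6*-iKO library of each of the 3 embryos, beside 25.9% of the genes tested. *Nes* and *Msi1* were the exceptions.

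For *Sox2*, *Fabp7* and *Slc1a3*, 3 genes that were lower within each embryo, the stretch before the start annotated in RefSeq (GRCm38.p6, 5′ to 3′ on the gene's strand) is shown, as far as it lies outside the exons of the gene. Windows of RefSeq were at hand for 8 of the 10 genes. Capitals mark each match, on either strand, to CCAAT (the CCAAT box, ATTGG on the other strand), ACAAT (a core of SOX sites, or ATTGT) and GGGCGG (the GC box, or CCGCCC). The *Sox2* stretch is chr3:34649745-34649994, plus strand, that of *Fabp7* chr10:57784673-57784880, plus strand, and that of *Slc1a3* chr15:8710808-8711057, minus strand.
Sox2: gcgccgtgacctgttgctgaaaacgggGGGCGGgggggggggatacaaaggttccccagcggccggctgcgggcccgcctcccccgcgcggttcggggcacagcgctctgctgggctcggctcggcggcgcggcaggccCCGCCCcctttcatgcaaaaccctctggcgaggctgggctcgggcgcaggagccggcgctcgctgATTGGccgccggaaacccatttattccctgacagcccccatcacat
Fabp7: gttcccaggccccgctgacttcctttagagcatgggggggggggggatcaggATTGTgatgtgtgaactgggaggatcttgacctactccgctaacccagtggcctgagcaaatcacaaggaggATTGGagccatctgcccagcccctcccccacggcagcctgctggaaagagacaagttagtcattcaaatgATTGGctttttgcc
Slc1a3: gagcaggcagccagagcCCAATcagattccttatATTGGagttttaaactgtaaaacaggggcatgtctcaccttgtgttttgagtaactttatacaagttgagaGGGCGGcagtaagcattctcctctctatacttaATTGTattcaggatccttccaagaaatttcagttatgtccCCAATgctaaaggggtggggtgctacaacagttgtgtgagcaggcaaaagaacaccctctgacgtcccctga

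*Sox2* held GC boxes and 1 CCAAT box but no ACAAT, while *Fabp7* and *Slc1a3* each held a single ACAAT beside CCAAT boxes. The 8 genes had 11 RefSeq windows of 250 bases, among them 3 of *Msi2* that overlap and share their matches. CCAAT occurred in 9 of these 11 (7 of 8 genes) and in 33.8% of all 32851 windows, and GGGCGG in 8 of 11 (6 of 8 genes) and in 32.7%. ACAAT occurred in 3 of 11, of *Fabp7*, *Nes* and *Slc1a3*, a share like the 27.7% of all windows. GTGGGAA, searched on both strands, the site of the Notch effector RBPJ, was in none of the 11 and in 5.42% of all windows. A match is a run of letters and not a measured site, and the genes with a match fell on both sides of the threshold.

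Other genes of the neural stem cell programme were read from 3 lists, of 20 genes each. In *Smg6*-iKO against Ctr, 11 of 20 neural stem transcription factors were called lower and none higher, beside 4.98% of all genes lower, with a median log2 fold change of -0.29. *Hes5*, a Notch effector that holds back differentiation, fell furthest, from 56.8 ± 14.2 RPKM (SD, n = 3) in Ctr to 23.4 ± 3.72 RPKM (SD, n = 4) in *Smg6*-iKO (log2 fold change -1.28, SE 0.155, adjusted p = 0.00186 by edgeR), with 37.8 ± 8.001 RPKM (SD, n = 4) in Ctr + 4-OHT. *Pou3f3*, a POU factor of cortical progenitors and the most abundant of the list, fell by 0.35 on the log2 scale, and *Pax6*, *Sox21*, *Pou3f2* and *Gli3*, all regulators of forebrain progenitors, fell by 0.45, 0.40, 0.32 and 0.30. Without any one of Ctr SMH_128, Ctr SMH_132 and *Smg6*-iKO SMH_133 only 4 of the 20 were called, *Sox21*, *Hes5*, *Pou3f2* and *Pou3f3*, so *Pax6* and *Gli3* lost their calls. Over all genes the calls fell from 1663 to 578, 574 and 570. Against Ctr + 4-OHT none of the 20 was called, 18 of 20 were below 0, and 6 had an unadjusted p under 0.05, beside 16.7% of all genes. *Hes5* was at -0.69 there (adjusted p = 0.0647 by edgeR) and was called without the 3 libraries high in markers of other cells. So was *Hopx* of the 3 lists, which was higher. That setting was added after seeing the data, left 2 libraries of Ctr + 4-OHT and called 99 genes over all genes, in place of 206. It left out the Ctr + 4-OHT libraries lowest in *Hes5* (31.9 and 32.1 RPKM), and also the lowest of *Smg6*-iKO (19.4 RPKM). DESeq2 called *Hes5* and *Pou3f3*, the 2 genes of all 3 lists that it called, beside 6.16% of all genes. *Hopx* and *Pou3f3* are named for this after their values were seen.

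Of 20 genes of the radial glial surface, matrix, filaments and metabolism, 5 were called lower and 1 higher in *Smg6*-iKO against Ctr (median -0.17), beside 9.25% of all genes in either direction. *Mfge8*, a secreted glycoprotein of radial glia and astrocytes, fell by 0.99 on the log2 scale (SE 0.130, adjusted p = 0.00268), *Ednrb*, the endothelin receptor, by 0.63, *Vcam1*, an adhesion molecule of stem cells, by 0.57, *Glul*, glutamine synthetase, by 0.53 and *Dbi*, the acyl-CoA binding protein, by 0.36. *Synm*, an intermediate filament protein that assembles with vimentin and nestin, rose by 0.60 (SE 0.079, adjusted p = 0.00279 by edgeR), from 1.16 ± 0.051 to 1.76 ± 0.024 RPKM. Without Ctr SMH_128, Ctr SMH_132 or *Smg6*-iKO SMH_133, *Mfge8*, *Glul* and *Synm* alone kept their calls, while the calls over all genes fell too. For some of these the Ctr + 4-OHT group lay well below Ctr too. *Ednrb* was at -0.59, *Mfge8* at -0.74 and *Glul* at -0.40 in Ctr + 4-OHT against Ctr, beside -0.03, -0.24 and -0.12 in *Smg6*-iKO against Ctr + 4-OHT. None of the list was called in either of these comparisons by edgeR, with 7 and 4 at an unadjusted p under 0.05, beside 8.28% and 16.7% of all genes. DESeq2 called 5 genes of the 3 lists in Ctr + 4-OHT against Ctr (0.83% of all genes), *Ednrb*, *Mfge8*, *Glul*, *Pla2g7* and *Fgfr2*, all lower and named here after their values were seen.

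Of the 19 self-renewal regulators tested, 3 were called lower in *Smg6*-iKO against Ctr (4.98% of all genes), *Fgfr2* (-0.46), the FGF receptor, and *Notch1* (-0.30) and *Dll1* (-0.34), a Notch receptor and ligand. *Lin28b*, an RNA-binding repressor of let-7, was called higher (0.39), at 0.967 ± 0.073 RPKM against 0.737 ± 0.071. Of these *Fgfr2* alone kept its call without Ctr SMH_128, Ctr SMH_132 or *Smg6*-iKO SMH_133, where the calls over all genes fell too. *Ccnd1*, the most abundant of the list, was at 0.17 (adjusted p = 0.124 by edgeR), and with the replicate block it was called higher, at 0.19 (adjusted p = 0.0221). No gene of the list was called by edgeR in the other comparisons, with 6 at an unadjusted p under 0.05 against Ctr + 4-OHT (16.7% of all genes) and 2 in Ctr + 4-OHT against Ctr (8.28%). With the replicate block 34 genes of the 3 lists were called against Ctr, in place of 21, beside a rise from 9.25% to 21.4% over all genes.

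In some libraries, markers of neurons and the 10 genes ran in opposite directions. The 10 neuron markers summed to between 415 and 527 RPKM in Ctr, 396 and 785 in Ctr + 4-OHT and 559 and 703 in *Smg6*-iKO. *Nefl*, *Gap43* and *Ina* were called higher in *Smg6*-iKO than in Ctr (0.55, 0.40 and 0.45, adjusted p = 0.0431, 0.0428 and 0.0401 by edgeR). This stood beside 4.27% of all genes, and none of the 10 was called lower. *Tubb3*, neuronal tubulin and the most abundant of the list, was at 0.42 (adjusted p = 0.0534 by edgeR). Against Ctr + 4-OHT none was called, nor had any an unadjusted p under 0.05. The same held in Ctr + 4-OHT against Ctr, with no deletion on either side, where none of the 10 was below 0, beside 48.8% of all genes. The median log2 fold change of the 10 was 0.29 there and 0.35 in *Smg6*-iKO against Ctr. In Ctr + 4-OHT the libraries SMH_125 and SMH_131, the highest in neuron markers at 785 and 695 RPKM, were the lowest of the group in 6 of the 10 genes, *Sox1*, *Sox2*, *Sox9*, *Vim*, *Prom1* and *Msi1*, and embryo SMH_129, the lowest at 396 RPKM, was the highest in 9 of 10, all but *Msi1*. The part of these cells in the results was not tested.

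The 6 mesenchymal markers summed to between 44.5 and 64.1 RPKM in Ctr, 35.2 and 104 in Ctr + 4-OHT and 32.0 and 175 in *Smg6*-iKO, led by *Col3a1* with 101 RPKM in embryo SMH_127. None was called. Results were also read without *Smg6*-iKO SMH_127 and Ctr + 4-OHT SMH_125 and SMH_131, of which only SMH_127 enters *Smg6*-iKO against Ctr. Without it *Sox1*, *Sox2* and *Prom1* still passed there and *Fabp7* did not, while calls over all genes went from 1663 to 843. None of the 10 was called in *Smg6*-iKO against Ctr + 4-OHT or Ctr + 4-OHT against Ctr, beside 99 and 54 genes called over all genes. In *Smg6*-iKO against Ctr + 4-OHT, then with 2 libraries of Ctr + 4-OHT, *Sox9* and *Vim* turned to -0.12 and -0.09. *Sox1* went from -0.05 to -0.22, *Sox2* from -0.21 to -0.35 and *Prom1* from -0.26 to -0.37. The Ctr + 4-OHT libraries left out were the lowest of their group in these genes, so the shifts in part follow from that choice. *Smg6*-iKO SMH_127 was the lowest of its group in *Sox1* and *Sox2*, which works the other way. Of the 10 log2 fold changes 9 were below 0, and the share over all genes was not computed in this setting.

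**Figure D4:**
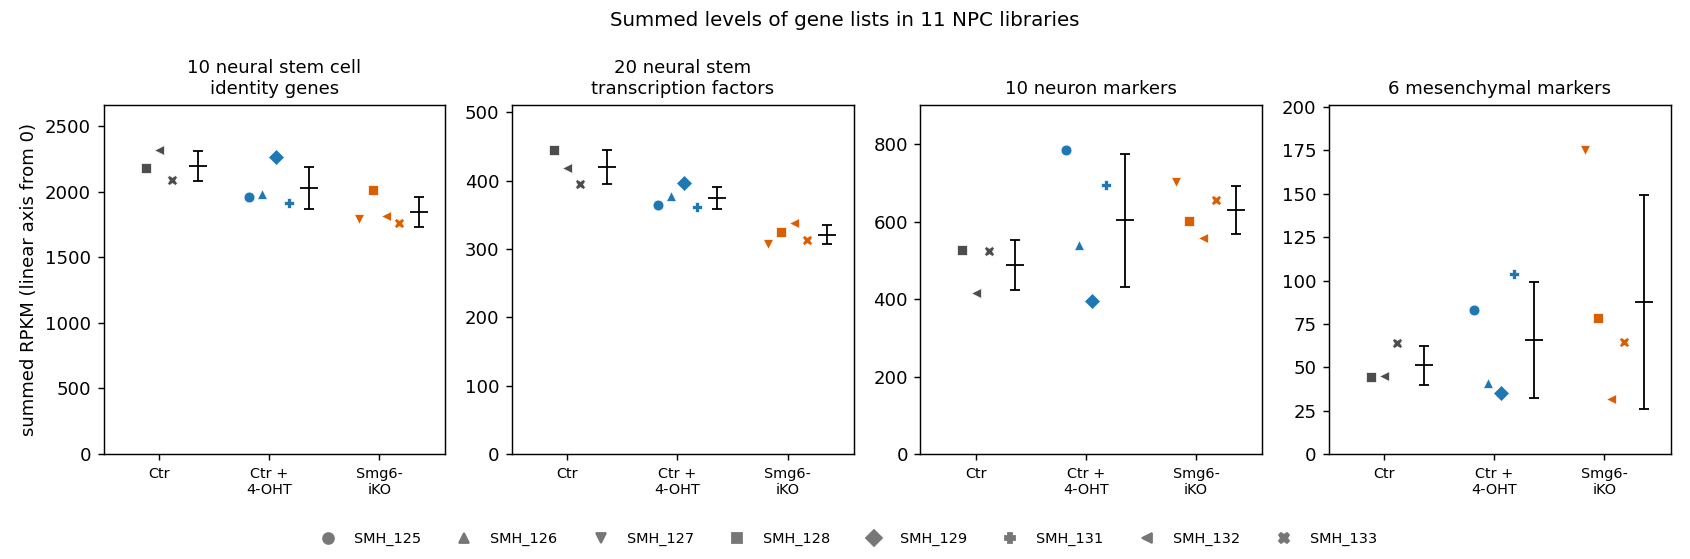
Summed RPKM (linear axis from 0) of the 10 genes, of 20 other neural stem transcription factors, of 10 neuron and of 6 mesenchymal markers in each library, with symbols by embryo and the group mean with SD in black. The transcription factors lie at 307 to 338 RPKM in *Smg6*-iKO, 361 to 397 in Ctr + 4-OHT and 395 to 444 in Ctr, while the neuron sum spreads most within Ctr + 4-OHT (SD 171, against 64.2 in Ctr and 63.0 in *Smg6*-iKO) and the mesenchymal sum within *Smg6*-iKO.

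Of the remaining lists, *Gfap*, the astrocyte filament gene, was called higher against Ctr (log2 fold change 1.33, SE 0.315, adjusted p = 0.0288 by edgeR). It went from 4.19 ± 1.87 RPKM (SD, n = 3) to 10.5 ± 3.73 RPKM (SD, n = 4), with 6.89 ± 7.93 RPKM (SD, n = 4) in Ctr + 4-OHT. *Smg6*-iKO against Ctr + 4-OHT gave 0.62 for *Gfap* (adjusted p = 0.687 by edgeR). Ctr + 4-OHT SMH_131 held 18.5 RPKM, above the highest *Smg6*-iKO library at 15.1 RPKM. None of the other 7 astrocyte markers, led by *Aldh1l1*, was called, and none of the intermediate progenitor (led by *Btg2*), oligodendrocyte lineage (led by *Olig1*) or endothelial (led by *Kdr*) markers. With the replicate block, where 21.4% of all genes were called, 8 of 10 neuron and 5 of 9 oligodendrocyte lineage markers were higher and none lower. Of the 8 astrocyte markers 2 were then higher and 3 lower, and of the 6 mesenchymal markers 1 higher and 1 lower. Microglial markers (1 of 8 tested, *Tmem119*) summed to at most 1.77 RPKM in a library, endothelial markers to at most 1.22 RPKM and erythroid markers (0 of 5 tested, led by *Hba-a2*) to at most 0.138 RPKM.

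For the 4 genes called against Ctr, the genes with the most similar course over the 11 libraries were sought, by the root mean square difference of centred log2 CPM among 18122 genes. Nearest to *Sox2* were *Klf15*, a zinc finger factor, and the metabolic genes *Aldh6a1* and *Asrgl1* (0.035, 0.063 and 0.067, against an SD of 0.27 of *Sox2* itself). Nearest to *Prom1* were the kinase gene *Stk17b*, the BMP receptor gene *Bmpr1b* and the cell cycle inhibitor gene *Cdkn1b* (0.055, 0.055 and 0.056, SD 0.26). *Sox1* ran closest to *Lmf2*, the ribosomal gene *Rps26* and *Hadh* (0.040, 0.051 and 0.065, SD 0.20), and *Fabp7* to *Ormdl1*, the proteasome gene *Sem1* and *Tmem243* (0.048, 0.052 and 0.053, SD 0.14). The points share libraries and embryos, and no other gene of the 10 was among these nearest ones.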

How the data were processed

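Total RNA of NPC cultures from E13.5 mouse brains was measured in 11 stranded, single-read libraries. Per the labels and methods, the authors mapped reads to GRCm38 with STAR 2.5.4b (reads extracted with bcl2fastq 1.8.4) and counted, with featureCounts 1.5.0 and Ensembl genes, reads on 1 position and 1 gene. They deposited 1 count per gene and library, without normalization, with the exon length beside it. Reads on exons shared by overlapping genes of 1 strand were therefore lost, which touched 86 bases of *Sox1* (with *Gm25239*).

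Groups came from the labels. The numbers SMH_128, SMH_132 and SMH_133 stand in titles of both Ctr and *Smg6*-iKO, whose cells the series text calls the same. Their deviations from group means correlated at 0.328 to 0.425, other numbers at -0.265 to 0.0948, so the number was used as the embryo. No libraries of a group were duplicates.

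The 3 comparisons were fitted separately, each on its own libraries, in R 4.3.3 with edgeR 4.0.16 (filterByExpr, TMM, quasi-likelihood test, Benjamini-Hochberg over all genes tested, threshold 0.05). RPKM and log2 CPM (prior count 2) used TMM over all 11 libraries. Alternatives were DESeq2's size factors, upper-quartile scaling, no filter, all libraries in 1 fit, DESeq2 1.42.0, a length correction (loess span 0.3), the embryo as block, and each library left out. Leaving out 3 libraries high in markers of other cells was added after seeing the data. The fits were tested on simulated data. Counts carry counting error and variation between embryos.

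The 10 genes, the lists and the tests were chosen with earlier results of these data known. Named besides the 10 were called list genes (at most 6 per list and comparison, lowest p), the most abundant of each list, the 3 genes nearest to each called gene, and genes sharing exons. Promoters are RefSeq's (GRCm38.p6). Figures used Python 3.11.15, pandas 2.3.3 and matplotlib 3.10.9.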

Additional observations from a re-analysis of the deposited data

Results flagged for a closer look

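Of 24 groups of 4 libraries examined (the levels of the 10 genes and the 2 ratios), 5 held a library whose gap to its nearest neighbour took up more of the group's range than Dixon's 95% value allows. Chance gives about 1 in 20 groups. All 5 lie in *Smg6*-iKO, and 4 of them in embryo SMH_128. *Sox1* was low in embryo SMH_127, at 7.21 RPKM against 8.21 to 8.41 in the others. In embryo SMH_128 *Prom1* was high, at 9.19 RPKM against 7.30 to 7.53, and *Msi2* was high, at 35.2 RPKM against 30.4 to 30.5. *Msi1* was low there, at 7.23 RPKM against 9.19 to 9.36, and the log2 ratio of *Msi1* to *Msi2* was -2.28 against -1.73 to -1.71. The Ctr library of embryo SMH_128 had the highest *Prom1* and *Msi2* of its group too, and also the highest *Msi1*.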

How the results depend on the processing

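No alternative called any of the 10 genes in *Smg6*-iKO against Ctr + 4-OHT or in Ctr + 4-OHT against Ctr. In *Smg6*-iKO against Ctr, where 4 were called, all libraries in 1 fit left 1 (*Prom1*), the replicate block gave 7 and the block with the length correction 8, *Vim* added. With 1 library left out the count ran from 1 to 6. *Prom1* was called throughout and alone without Ctr SMH_128 or Ctr SMH_132, 2 genes (*Sox1*, *Prom1*) remained without *Smg6*-iKO SMH_133, and 6 were called without Ctr SMH_133 or *Smg6*-iKO SMH_128. The cause was not tested. Over all genes the calls, 206, 1663 and 39 for *Smg6*-iKO against Ctr + 4-OHT, against Ctr and for Ctr + 4-OHT against Ctr, ran from 66 to 174, 570 to 2524 and 5 to 54 with 1 library left out and from 99 to 880, 796 to 4078 and 37 to 198 under the other alternatives.

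The 3 wider lists, with 21 genes called against Ctr, gave 34 with the replicate block and 8 to 22 with 1 library left out (8 without Ctr SMH_128, Ctr SMH_132 or *Smg6*-iKO SMH_133). In *Smg6*-iKO against Ctr + 4-OHT they gave 0 with any library left out, but 2 by DESeq2 and 2 without the 3 libraries high in other cells' markers (*Hes5* lower, *Hopx* higher). In Ctr + 4-OHT against Ctr they gave 5 by DESeq2 and 0 to 1 with 1 left out (*Mfge8*, without SMH_129).

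Signs turned only for values near 0. Against Ctr + 4-OHT, *Vim* was -0.0025 by DESeq2, -0.040 with the length correction and -0.086 without the 3 libraries, and *Sox9* was -0.022 and -0.12 in the last 2. With 1 library left out *Vim* ran from -0.053 to 0.073, *Sox9* from -0.035 to 0.10 and *Sox1* from -0.13 to 0.027. *Msi1* against Ctr was 0.00061 with upper-quartile scaling and -0.081 to 0.047 with 1 left out. *Nes* in Ctr + 4-OHT against Ctr ran from -0.048 to 0.11. Log2 ratios of *Sox1* to *Sox2* ran from -0.062 to 0.070 there, and 0.12 to 0.23 and 0.11 to 0.24 against Ctr + 4-OHT and Ctr. Those of *Msi1* to *Msi2* ran from 0.15 to 0.41 and from 0.087 to 0.28, and from -0.21 to -0.0050 in Ctr + 4-OHT against Ctr. Paired within embryos, the 2 ratios differed by 0.14 and 0.095. Other scalings of the levels moved 59 of 60 group means by less than 1 SD.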
